A study of Mus musculus with 10 samples.

Results

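The genes described here are 10 transcription factors and inhibitors of transcription factors that direct the effector fates of lymphocytes: Tbx21, Eomes, Gata3, Rora, Zbtb16, Id2, Id3, Zeb2, Maf and Ahr. They were chosen by name, not by any measured value, out of 32285 genes listed in each library, and all 10 passed the filter on low counts among the 11943 genes tested. They were followed through 4 droplet libraries of lymph node cells from wild-type female BALB/C mice aged 8 weeks. A T cell library and a library of myeloid and stromal cells came from axillary nodes of 3 groups of mice, each marked with its own hashtag: untreated (naive) mice, mice bearing 4T1 tumours and mice bearing 67NR tumours. The hashtag of the 4T1 group is labelled 4T1.pre-met or 4T1PM. 4T1 is a mouse mammary carcinoma line that spreads to distant organs and 67NR is a sister line that grows at the site of injection. The tumour cells were placed in a mammary pad, and nodes were taken 18 days later, at a tumour size of 500 mm3. The other libraries are atlases of naive axillary and naive mediastinal nodes, stained with oligonucleotide-tagged antibodies. Each condition held at least 3 mice, but 1 hashtag covers all mice of a condition, so the unit here is the mouse pool, a library and hashtag condition.

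T-bet (Tbx21) and Eomesodermin (Eomes) are T-box factors that drive interferon-gamma production and cytotoxicity in natural killer (NK) cells and T cells, and Zeb2 acts downstream of T-bet in late effector maturation. GATA3 (Gata3) and ROR-alpha (Rora) are needed for group 2 innate lymphoid cells, and GATA3 also for helper T cells. PLZF (Zbtb16) is the factor of innate-like T cells, c-Maf (Maf) of interleukin-17 producing, follicular helper and interleukin-10 producing T cells, and the aryl hydrocarbon receptor (Ahr) is a ligand-activated factor used by innate lymphoid and regulatory T cells. Id2 and Id3 hold no DNA-binding domain of their own: they pair with E proteins, which otherwise bind the E-box CANNTG, and keep them off DNA.

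The RefSeq promoter windows of 4 of these genes are shown because the pairs Tbx21 with Eomes and Id2 with Id3 carry the main contrast between NK and CD8 T cells below. They are the 250 bases before the RefSeq start (build GRCm38.p6), 5′ to 3′ on the strand of the gene, with each E-box CANNTG in capitals. Promoter entries were matched for 7 of the 10 genes, all but Zbtb16, Maf and Ahr. Tbx21 lies at chr11:97115332-97115581 on the minus strand, Eomes at chr9:118477939-118478188 on the plus strand, Id2 at chr12:25096093-25096342 on the minus strand and Id3 at chr4:136143572-136143821 on the plus strand.
Tbx21: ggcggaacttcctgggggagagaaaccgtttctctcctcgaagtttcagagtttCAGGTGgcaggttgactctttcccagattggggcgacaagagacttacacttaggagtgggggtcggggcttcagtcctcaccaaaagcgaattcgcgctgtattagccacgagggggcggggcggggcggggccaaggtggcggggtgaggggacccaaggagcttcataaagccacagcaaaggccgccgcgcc
Eomes: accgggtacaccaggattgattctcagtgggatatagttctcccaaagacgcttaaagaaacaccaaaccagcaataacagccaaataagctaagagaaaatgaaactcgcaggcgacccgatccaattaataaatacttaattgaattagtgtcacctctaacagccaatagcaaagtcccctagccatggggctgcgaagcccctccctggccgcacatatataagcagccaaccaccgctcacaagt
Id2: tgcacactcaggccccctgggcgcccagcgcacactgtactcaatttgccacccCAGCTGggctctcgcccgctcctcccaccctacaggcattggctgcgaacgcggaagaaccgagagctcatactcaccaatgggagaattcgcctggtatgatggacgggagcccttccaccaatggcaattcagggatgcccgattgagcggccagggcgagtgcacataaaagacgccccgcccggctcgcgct
Id3: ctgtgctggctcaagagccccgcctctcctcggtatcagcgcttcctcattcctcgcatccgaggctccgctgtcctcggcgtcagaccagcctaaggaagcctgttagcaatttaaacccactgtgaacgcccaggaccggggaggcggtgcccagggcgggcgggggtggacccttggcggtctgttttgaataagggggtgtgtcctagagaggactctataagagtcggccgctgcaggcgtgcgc
Tbx21 and Id2 each held 1 E-box in this window and Eomes and Id3 held 0. The motif reads the same on both strands, and 66.2% of the 32851 promoters of the same length held it at least once, so its presence is common and is given as a description.

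By gene annotation (GENCODE M21, GRCm38) all 10 are protein-coding genes: Tbx21 on chr11:97098071-97115331, Eomes on chr9:118478212-118486132, Gata3 on chr2:9857078-9890034, Rora on chr9:68653786-69388246, Zbtb16 on chr9:48654297-48836222, Id2 on chr12:25093799-25097140, Id3 on chr4:136143497-136145755, Zeb2 on chr2:44983632-45117395, Maf on chr8:115682942-115707794 and Ahr on chr12:35497974-35535038. These spans start at the outermost annotated transcript, so the windows printed for Id2 and Id3 lie within the annotated gene and those for Tbx21 and Eomes before it.

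Cells were sorted into 6 gates by counts of unique molecular identifiers (UMIs) of lineage genes, none of them a gene studied here: CD4 T cells without Foxp3, Foxp3 T cells, CD8 T cells, gamma-delta T cells (Trdc without Trac), NK cells and innate lymphoid cells. Most cells of the CD4 gate carried Il2ra, Ikzf2 or Ctla4. T cell library cells without these genes numbered 39 of 303 (4T1), 45 of 324 (67NR) and 61 of 296 (naive). They were 180 of 547 axillary and 83 of 403 mediastinal cells. The gate was used whole in every contrast over CD4 unless stated. The libraries gave 7210 cells (T cell), 5412 (myeloid and stromal), 10635 (axillary atlas) and 25148 (mediastinal atlas), with median UMIs per cell of 10930, 10802.5, 6435 and 2272, and any 2 libraries shared 23 to 82 cell barcodes. In the axillary atlas, 488 of 547 cells in the CD4 gate, 108 of 151 in the CD8 gate, 1469 of 1930 in the gamma-delta gate and 1098 of 1512 in the NK gate fell in the matching antibody gate. The mediastinal atlas stood apart: the median CD4 antibody count was 30 in its CD4 gate, 31 in its CD8 gate and 27 in its B gate, and 6 B cell markers summed to 743 to 878 CPM (UMIs of a gene per 1000000 UMIs of the summed gate) in its CD4, gamma-delta and CD8 gates, against 35.4 to 51.9 in the same gates of the axillary atlas. Values without that atlas are therefore also given where leaving it out changes a call or moves a called fold by over 1.5 times. The gates also left out cells with at least 2 UMIs of Col1a2 and Pecam1, meant to remove stroma, but 59.4% of CD3-positive cells in the T cell library had a Pecam1 UMI; wide gates without Pecam1 raised the gated cells there from 3597 to 5723. Values under the wide gates stand beside a gate contrast or condition ratio where they end its call or move it by over 1.5 times.

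Levels are CPM of the gate's sum, and are compared only within a gene. Gate contrasts were fitted in edgeR on 23 sums from 6 pools, with the pool as a block, and a gene passed at a Benjamini-Hochberg adjusted p under 0.05 over all genes. CD4, Foxp3 and CD8 sums came from 5 pools. Gamma-delta and NK sums came from the atlases and the naive pool of the myeloid and stromal library, and innate lymphoid sums from the atlases alone, so gamma-delta and NK cells were measured beside T cells in the same pool only in the 2 atlases. Nothing in the labels ties pools to single animals, so these p-values measure the spread between pools and not between mice. The estimate of spread is shared over all 6 gates of the fit. Without the mediastinal atlas, gamma-delta and NK cells stood beside T cells in the axillary pool alone. The p-values of those contrasts then do not measure how the contrast itself varies between pools.

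**Figure D1:**
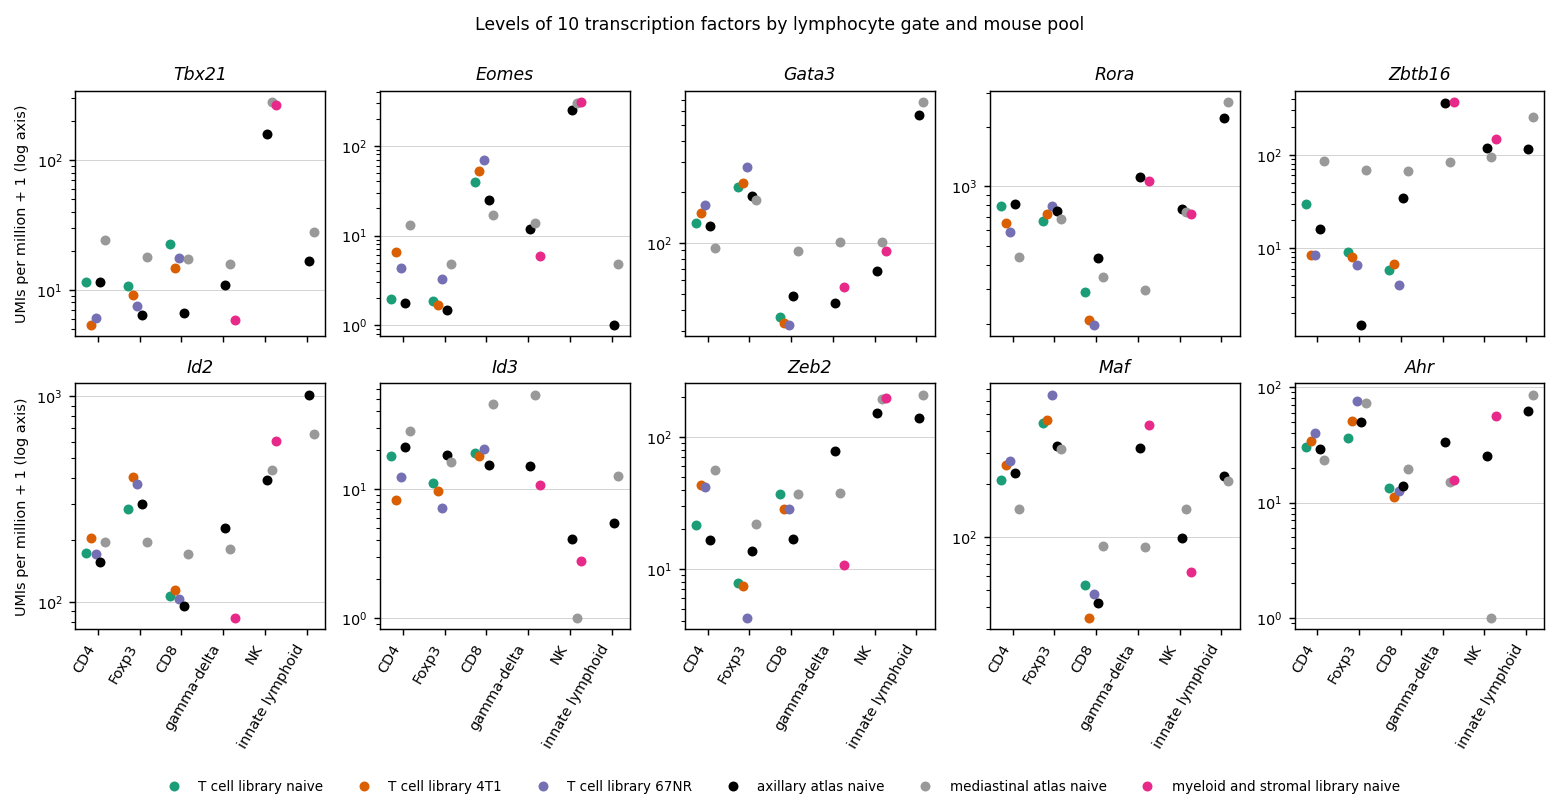
Level of each gene (CPM plus 1, log axis) in each gate; each point is 1 mouse pool of at least 20 cells, coloured by library and condition. The NK points of Tbx21 and Eomes and the innate lymphoid points of Gata3 and Rora lie above every other gate, and the mediastinal points (grey) of Zbtb16 in the 4 T cell gates all lie between 66.8 and 84.6.

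The T-box pair was highest in NK cells, and Eomes was also higher in CD8 than in CD4 T cells. Eomes measured 249.6 CPM in NK cells of the axillary atlas, 302 in the mediastinal atlas and 308 in the naive myeloid and stromal pool. In CD8 cells it measured 38.6, 50.9 and 68.7 CPM in the naive, 4T1 and 67NR pools of the T cell library, 24 in the axillary and 15.9 in the mediastinal atlas. The NK range lay wholly above the CD8 range. Eomes in the CD4 gate was at 0.786 to 5.48 CPM outside the mediastinal atlas and 12.1 in it. Eomes rose by 3.64 ± 0.39 (log2, SE, edgeR adjusted p = 3.26e-05) in CD8 over CD4, higher in 5 of 5 pools, by 2.64 ± 0.58 (adjusted p = 0.012) in gamma-delta over CD4 and by 3.36 ± 0.46 (adjusted p = 3.6e-05) in NK over CD8, higher in 2 of 2. In gamma-delta against CD4 cells Eomes stood at 10.8 against 0.786 CPM in the axillary and 12.7 against 12.1 in the mediastinal atlas. The axillary CD4 value came from 3 UMIs (ratio 13.8, 95% counting interval 4.63 to 67.6). The naive CD4 sum of the T cell library also held 3 Eomes UMIs. The innate lymphoid gate of the axillary atlas held 0 Eomes UMIs of 1333904, against 2150 in its NK gate, so Eomes was at least 111-fold lower there (floor of 3 UMIs per library). With 1 UMI, the mediastinal innate lymphoid gate measured 3.86 CPM against 302 in its NK gate, which was 78.2-fold higher (95% counting interval 13.3 to 3163). With wide gates the axillary innate lymphoid gate held 4 Eomes UMIs, all in 1 cell (2.27 CPM against 235 in NK cells).

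Tbx21 measured 158, 280.4 and 265 CPM in NK cells of the axillary atlas, the mediastinal atlas and the naive myeloid and stromal pool, and 5.59 to 21.4 CPM over the 5 CD8 sums. Tbx21 rose by 3.41 ± 0.35 in NK over CD8 (edgeR adjusted p = 1.5e-06) and was lower by 3.17 ± 0.45 in innate lymphoid cells than in NK cells (adjusted p = 0.00013), in both atlases. Its CD8 over CD4 difference was 0.84 ± 0.27 (edgeR adjusted p = 0.063), with 3 of 5 pools higher. All 3 were pools of the T cell library, and Tbx21 was lower in CD8 than in CD4 cells in both atlases. Without the mediastinal atlas the Tbx21 difference was 1.12 ± 0.25 and passed (edgeR adjusted p = 0.0035). The axillary atlas, the only library beside the T cell library with both gates in that fit, went the other way (log2 -0.905). The passing value therefore rests on the T cell library alone. In the CD4 gate Tbx21 was at 4.33 to 23.2 CPM, and 4.2% of axillary CD4 cells had a UMI against 1.53% of axillary B cells. The CD4 and CD8 gates therefore overlapped in Tbx21, unlike in Eomes.

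Zeb2, the zinc-finger factor of terminal effector cells, was at 152, 194 and 198 CPM in the 3 NK sums and at 16 to 35.9 CPM in the CD8 sums, a rise of 2.44 ± 0.51 (edgeR adjusted p = 0.0022). Zeb2 was also present in innate lymphoid cells, at 137 and 208 CPM, and the difference from NK cells was -0.02 ± 0.55 (edgeR adjusted p = 0.997). It fell in Foxp3 over CD4 by 2.08 ± 0.45 (edgeR adjusted p = 0.0057), lower in 5 of 5 pools. With cells carrying Il2ra, Ikzf2 or Ctla4 left out of the CD4 gate the difference was -0.14 (edgeR adjusted p = 0.96), and the call was also lost without the 4T1 pool (-1.87, adjusted p = 0.064) and without the 67NR pool (-1.68, adjusted p = 0.073) of the T cell library.

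Gata3 and Rora, the pair of type 2 innate lymphoid cells, were highest in the innate lymphoid gate. Gata3 measured 573 CPM there in the axillary and 683 in the mediastinal atlas, against 67.2, 100.7 and 88.5 CPM in NK cells, and rose by 3.09 ± 0.41 over NK cells (edgeR adjusted p = 7e-05). Among T cells Gata3 fell in CD8 over CD4 by 1.57 ± 0.25 (adjusted p = 0.00065), from 92.6 to 166 CPM in the 5 CD4 sums to 31.5 to 87.9 in the CD8 sums. In the Foxp3 gate it ran from 179 to 279 CPM, above CD4 in 5 of 5 pools. That difference, 0.66 ± 0.23, did not pass with all pools (edgeR adjusted p = 0.10) and was 0.61 ± 0.11 without the mediastinal atlas, where it passed (adjusted p = 0.00039).

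Rora measured 2239 and 2694 CPM in the 2 innate lymphoid sums and 727 to 763 CPM in the 3 NK sums. Rora rose by 2.10 ± 0.36 in innate lymphoid over NK (edgeR adjusted p = 0.00064) and by 0.90 ± 0.31 in NK over CD8 (adjusted p = 0.048), the latter higher in 2 of 2 pools. In CD8 over CD4 it fell by 1.13 ± 0.24 (edgeR adjusted p = 0.0052): 437 to 811 CPM in CD4 cells stood against 196 to 432 in CD8 cells, lower in 5 of 5 pools. Gamma-delta cells held 1120.2 CPM in the axillary atlas, 1067 in the naive myeloid and stromal pool and 295 in the mediastinal atlas. The axillary and mediastinal CD8 sums held 432 and 343 CPM, so 1 of 2 pools was higher and the mediastinal one was lower. The fitted rise over CD8 was 1.20 ± 0.31 (edgeR adjusted p = 0.040). Counted as cells with a UMI, Rora was found in 88.9% of axillary gamma-delta cells, 95.3% of innate lymphoid cells, 81% of NK cells and 3.11% of B cells. After thinning each cell to 1000 UMIs these shares were 53.8%, 78.4%, 43.5% and 0.766%. The B cell share serves as the background. In the mediastinal atlas the B gate held 188 CPM of Rora against 10.4 in the axillary B gate.

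Outside the mediastinal atlas Zbtb16 was highest in gamma-delta cells, at 355 CPM in the axillary atlas and 369 in the naive myeloid and stromal pool, while the mediastinal gamma-delta gate held 82. Innate lymphoid cells held 114 CPM in the axillary and 255 in the mediastinal atlas. It measured 116, 147 and 93.5 CPM in NK cells of the axillary, myeloid and stromal, and mediastinal pools. The CD8 sums of the T cell library held 2.97 to 5.79 CPM, that of the axillary atlas 33.6 and that of the mediastinal atlas 66.8. Zbtb16 rose by 3.11 ± 0.75 in gamma-delta over CD8 (edgeR adjusted p = 0.032), and by 5.08 ± 0.54 without the mediastinal atlas (adjusted p = 1.7e-06). Over CD4 the difference was 2.50 ± 0.80 (edgeR adjusted p = 0.079) with all pools and 4.17 ± 0.52 without the mediastinal atlas, where it passed (adjusted p = 9.4e-06). The mediastinal T cell gates were nearly level for this gene, at 66.8 to 84.6 CPM.

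Maf was high in Foxp3 cells and, outside the mediastinal atlas, in gamma-delta cells. The Foxp3 sums held 448, 465 and 648 CPM in the naive, 4T1 and 67NR pools, 331 in the axillary and 315 in the mediastinal atlas, each above the CD4 sum of the same pool (211, 256, 269, 230.5 and 144). The difference, 0.94 ± 0.32, did not pass with all pools (edgeR adjusted p = 0.079) and passed at 0.88 ± 0.14 without the mediastinal atlas (adjusted p = 0.00012). CD8 cells held 33.5 to 88.3 CPM, and Maf fell by 2.02 ± 0.34 in CD8 over CD4 (edgeR adjusted p = 0.001), lower in 5 of 5 pools. In gamma-delta over CD8 it rose by 2.28 ± 0.45 (edgeR adjusted p = 0.014): 322 CPM stood against 40.8 in the axillary atlas and 86.2 against 88.3 in the mediastinal atlas, so 1 of 2 pools was higher. Without the mediastinal atlas the Maf difference was 3.31 ± 0.23 (edgeR adjusted p = 1.1e-08).

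Ahr measured 61.5 and 84.9 CPM in the innate lymphoid sums of the axillary and mediastinal atlases and 24, 0 and 54.8 CPM in NK cells of the axillary, mediastinal and naive myeloid and stromal pools. It rose by 1.62 ± 0.49 in innate lymphoid over NK (edgeR adjusted p = 0.028) and fell by 1.23 ± 0.27 in CD8 over CD4 (adjusted p = 0.0070), lower in 5 of 5 pools. The Foxp3 sums held 35.2 to 74.3 CPM against 22.2 to 38.7 in CD4 cells, higher in 5 of 5 pools. That difference, 0.76 ± 0.26, did not pass with all pools (edgeR adjusted p = 0.080), but passed at 0.63 ± 0.18 without the mediastinal atlas (adjusted p = 0.018) and at 0.71 with wide gates (adjusted p = 0.039). The innate lymphoid call was lost with wide gates, at 1.18 (edgeR adjusted p = 0.051).

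The Id genes moved in opposite directions between NK and CD8 T cells. Id2 measured 392, 439 and 605 CPM in NK cells and 94.3 to 169 CPM in the 5 CD8 sums, a rise of 1.86 ± 0.33 (edgeR adjusted p = 0.00045). Id3 measured 3.13, 0 and 1.77 CPM in the axillary, mediastinal and naive myeloid and stromal NK sums and 14.4 to 44.4 CPM in CD8 cells, a fall of 3.05 ± 0.49 (adjusted p = 0.00019). Each Id2 value in NK cells lay above every CD8 value. The Id3 value of 0 in mediastinal NK cells allows up to 21.6 CPM (floor of 3 UMIs), which is within the CD8 range, so the separation of Id3 rests on the other pools. The fall of Id3 rests on few UMIs: 27 in 1512 axillary cells, 0 in 38 mediastinal cells and 1 in 73 cells of the myeloid and stromal library. The highest of the 23 Id2 sums was that of the axillary innate lymphoid gate, at 1017 CPM, followed by 652 in the mediastinal one. In Foxp3 over CD4, Id2 rose by 0.76 ± 0.23 at the edge of the threshold (edgeR adjusted p = 0.0495), with the mediastinal sums level at 194, and did not pass with wide gates (0.53, adjusted p = 0.16). In axillary B cells Id3 reached 69.3 CPM, above each of the 6 axillary gates.

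**Figure D2:**
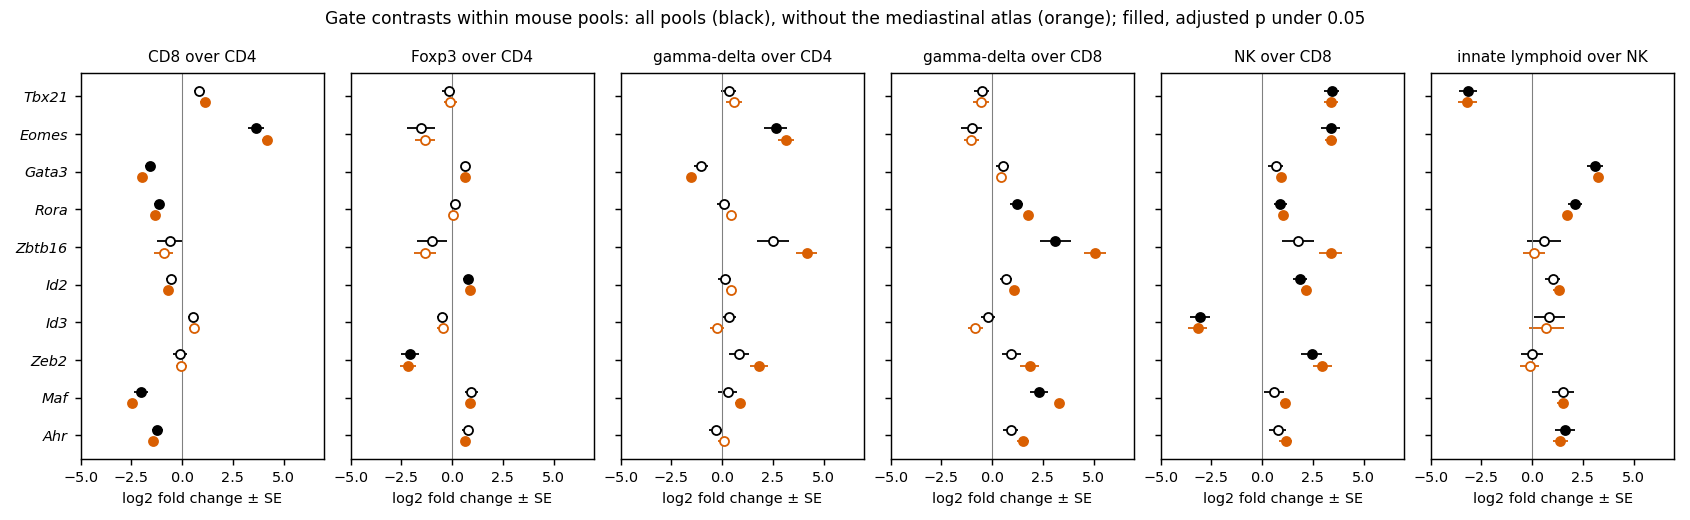
Log2 fold change with its standard error for each gene in the 6 gate contrasts, with all pools (black) and without the mediastinal atlas (orange); filled points have an edgeR adjusted p under 0.05, and Eomes in innate lymphoid over NK is not drawn because 1 gate held 0 UMIs. More orange than black points are filled in every contrast, 7 against 5 in CD8 over CD4 and 10 against 6 in NK over CD8. Orange points of the contrasts with gamma-delta, NK or innate lymphoid cells rest on the axillary pool alone.

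Counted over the 10 genes, 5 passed in CD8 over CD4, where 9.5% of the 11943 genes tested passed; 1 rose (4.03% of all genes rose) and 4 fell (5.47% fell). In Foxp3 over CD4, 2 of 10 passed against 8.08% of all genes, 1 in each direction (4.46% and 3.62%). In gamma-delta over CD4, 1 of 10 passed against 5.39%, 1 rose (2.38%) and 0 fell (3.01%). In gamma-delta over CD8, 3 of 10 passed against 3.37%, 3 rose (2.49%) and 0 fell (0.888%). In NK over CD8, 6 of 10 passed against 20.1%, 5 higher (10%) and 1 lower (10.1%). In innate lymphoid over NK, 5 of 10 passed against 15.5%, 3 higher (9.67%) and 2 lower (5.85%). The median log2 change of the 10 was -0.58, -0.02, 0.30, 0.79, 1.33 and 0.92 in the 6 contrasts in that order, where the median of all genes lay between -0.06 and 0.04. Without the mediastinal atlas the counts were 7 (22% of all genes), 5 (17.2%), 5 (19.2%), 6 (18.5%) and 10 (27.2%). Innate lymphoid over NK is left out of these counts because its innate lymphoid side was then 1 sum. Every gene that passed in the counted contrasts with all pools also passed without that atlas, in the same direction. The gamma-delta and NK counts there rest on the axillary pool alone. Beside those given with their genes, the calls gained without the mediastinal atlas, each with the log2 change with all pools first, were Id2 (-0.55, then -0.68 ± 0.15, adjusted p = 0.0026) in CD8 over CD4 and Gata3 (-1.06, then -1.54 ± 0.19, adjusted p = 9e-06), Zeb2 (0.83, then 1.82 ± 0.45, adjusted p = 0.0067) and Maf (0.27, then 0.86 ± 0.22, adjusted p = 0.0099) in gamma-delta over CD4 (edgeR). In gamma-delta over CD8 they were Id2 (0.67, then 1.09 ± 0.23, adjusted p = 0.0021), Zeb2 (0.94, then 1.85 ± 0.47, adjusted p = 0.0086) and Ahr (0.92, then 1.52 ± 0.29, adjusted p = 0.001) (edgeR). In NK over CD8 they were Gata3 (0.67, then 0.92 ± 0.19, adjusted p = 0.0015), Zbtb16 (1.76, then 3.37 ± 0.57, adjusted p = 0.0002), Maf (0.59, then 1.14 ± 0.24, adjusted p = 0.0015) and Ahr (0.76, then 1.15 ± 0.31, adjusted p = 0.0099) (edgeR). In innate lymphoid over NK, with the innate lymphoid side at 1 sum, the change of Id2 moved from 1.00 to 1.30 and that of Maf from 1.51 to 1.49.

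The calls depend on treating the 3 hashtag pools of the T cell library as separate. With 1 sum per library, Eomes alone of the 10 passed in CD8 over CD4 (0.203% of all genes passed), 0 passed in Foxp3 over CD4 (0.811%), gamma-delta over CD4 (0.645%) and gamma-delta over CD8 (0.0553%), with 3 in each at an unadjusted edgeR p under 0.05, and 5 and 4 passed in NK over CD8 (14.4%) and innate lymphoid over NK (11.9%). Without the axillary atlas 0 passed in both gamma-delta contrasts (0.0392% of all genes over CD4, 0.0314% over CD8), with 3 over CD4 and 0 over CD8 at an unadjusted edgeR p under 0.05, and 3 passed in each of the NK (4.54%) and innate lymphoid (2.4%) contrasts. In gamma-delta over CD8 0 passed without the naive, 4T1 or 67NR pool of the T cell library (0.482%, 0.33% and 0.567% of all genes), with 3 to 4 at an unadjusted edgeR p under 0.05, and in Foxp3 over CD4 0 passed without its 4T1 or its 67NR pool (3.55% and 3.6%), with 5 and 6 at an unadjusted p under 0.05. The calls over all genes thus fell in the same fits.

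Single calls were also ended by other settings. Eomes in gamma-delta over CD4 did not pass in DESeq2 (1.94, adjusted p = 0.17), without the pool as a block (1.67, edgeR adjusted p = 0.12), with cells thinned to 1000 UMIs (1.32, adjusted p = 0.62) or with clusters in place of gates (0.94, adjusted p = 0.81). With clusters, Eomes in NK over CD8 (2.94, edgeR adjusted p = 0.17), Rora in innate lymphoid over NK (2.31, adjusted p = 0.062) and the 3 gamma-delta over CD8 calls, Rora (1.29, adjusted p = 0.29), Zbtb16 (3.16, adjusted p = 0.13) and Maf (2.22, adjusted p = 0.11) kept their direction but did not pass. Rora in NK over CD8 did not pass with thinned cells (0.55, edgeR adjusted p = 0.19) or stricter gates (0.78, adjusted p = 0.14), and Ahr did not pass in CD8 over CD4 with thinned cells (-0.33, adjusted p = 0.77) or in innate lymphoid over NK with clusters (0.18, adjusted p = 0.92). Zeb2 in Foxp3 over CD4 did not pass with thinned cells (-1.10, edgeR adjusted p = 0.36).

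Gamma-delta cells of the axillary atlas were split by surface antibodies. With 1 pool there is no test, and the 95% intervals of these splits cover counting error only. Among cells with at least 40 counts of the gamma-delta receptor antibody, 1878 were low for CD62L, the homing receptor of naive cells, and high for CD44, a marker of earlier activation, and 529 were the reverse. Maf measured 438 against 43.6 CPM in these groups, Zeb2 126 against 10.3, Zbtb16 453 against 120 and Id2 307 against 65.2. Eomes measured 0.457 against 35.6 CPM and Tbx21 1.44 against 19.7. The T-box genes thus ran opposite to Maf, Zeb2, Zbtb16 and Id2. The ratio was 10.1 (8.57 to 11.9) for Maf and 12.3 (8.84 to 17.6) for Zeb2. Rora measured 1499 against 277 CPM and Gata3 49.4 against 27.1, while Id3 was lower in the CD44-high cells, at 10.3 against 22.2 CPM, and Ahr differed little, at 33.7 against 41.6.

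NK cells were split by the CD127 antibody, the interleukin-7 receptor found on helper-like innate cells and on some NK cells. Among cells with at least 5 NKp46 counts, 401 had at least 8 CD127 counts and 833 had under 4. Eomes measured 119 against 286 CPM (ratio 0.415, 0.365 to 0.471) and Zeb2 63.4 against 175. Rora measured 1183 against 615 CPM, Maf 159 against 81.2, Gata3 95.3 against 60.3 and Ahr 42.7 against 19.9. Zbtb16 measured 165 against 105 CPM. Tbx21 was slightly higher in the CD127-high cells, at 169 against 144 CPM (ratio 1.17, 1.04 to 1.33), so the T-box genes parted within NKp46-positive cells. Id2 was lower in the CD127-high cells, at 253 against 429.9 CPM.

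**Figure D3:**
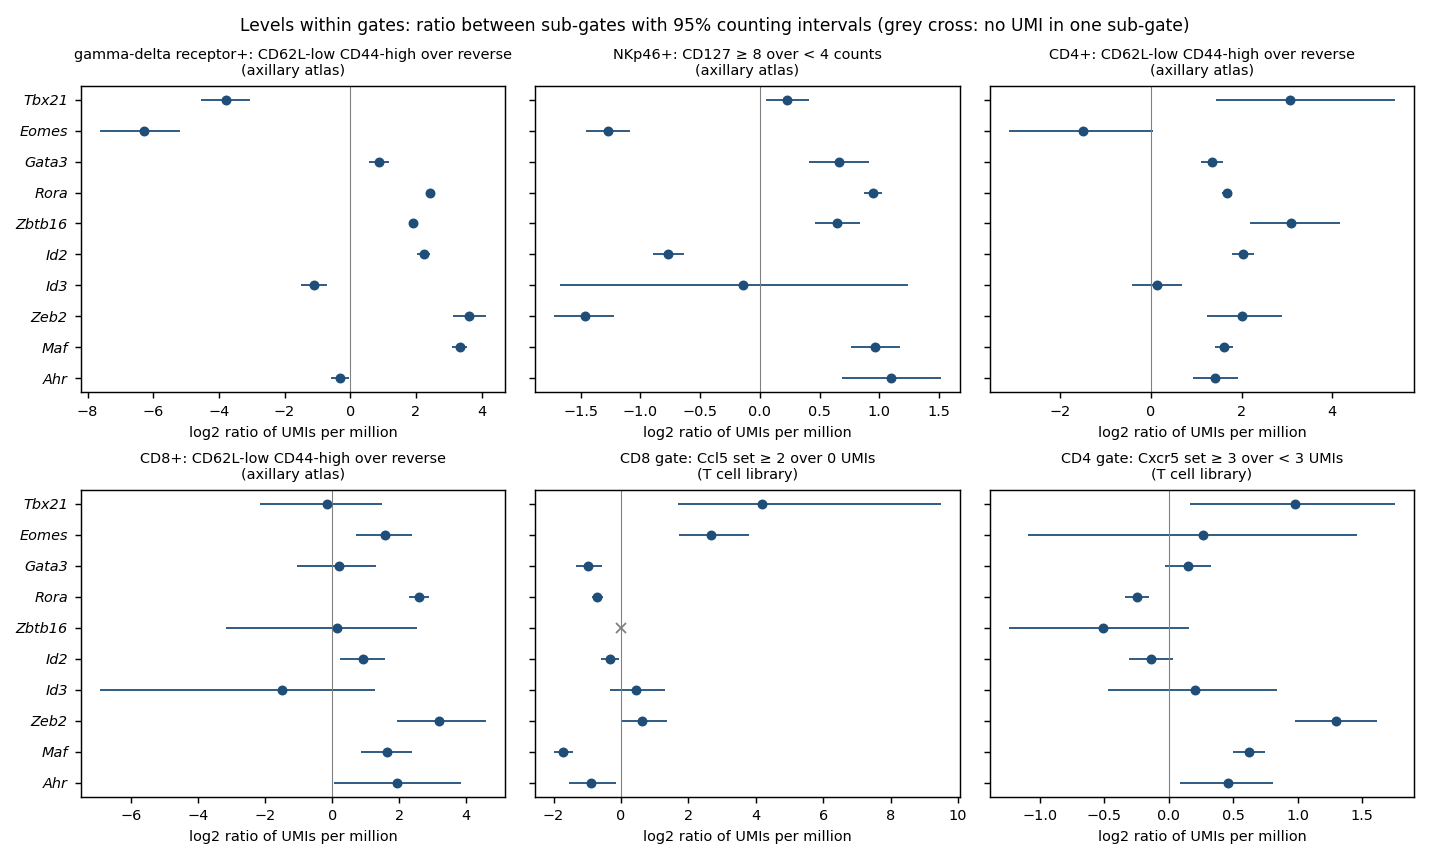
Log2 ratio of CPM between 2 groups of cells inside a gate, with exact 95% counting intervals, for 4 splits in the axillary atlas and 2 in the T cell library; grey crosses mark genes with 0 UMIs in a group. In cells with the gamma-delta receptor antibody Maf, Zeb2, Rora, Id2 and Zbtb16 lie to the right and Eomes and Tbx21 to the left, and in NKp46-positive cells Eomes and Zeb2 lie to the left.

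The CD4 antibody gate took in 253 of the 277 axillary cells of the Foxp3 gate. Regulatory T cells were thus not left out of this split, and their part in it was not tested. Among CD4-antibody cells of the axillary atlas, 648 were CD62L-low and CD44-high and 401 the reverse. In the first group Rora was at 1087 against 339 CPM, Id2 at 261 against 63.9, Maf at 319 against 104, Gata3 at 177 against 69.4, Ahr at 44.9 against 16.9, Zeb2 at 23.6 against 5.88, Zbtb16 at 33.5 against 3.92 and Tbx21 at 9.85 against 1.18, the latter from 3 UMIs (ratio 8.37, 2.71 to 42.0). The Zbtb16 UMIs came from 4.78% of cells in the first group and 2.0% in the second. Id3 measured 17.5 and 16.1 CPM. Eomes went the other way, at 1.38 against 3.92 CPM from 7 and 10 UMIs, with an interval that held 1 (ratio 0.352, 0.114 to 1.02). Among CD8-antibody cells the groups were 33 and 116 cells. Zeb2 measured 71.9 against 7.85 CPM, Rora 851 against 141, Maf 106 against 34.3 and Id2 109.7 against 57.9. The Zeb2 values came from 19 and 8 UMIs, found in 15.2% and 3.45% of cells. Eomes measured 87 against 29.4 CPM, but its 23 UMIs in the first group came from 2 of 33 cells, against 14 of 116 cells in the second, so the share of cells with a UMI ran the other way (6.06% against 12.1%). Tbx21 rested on 4 and 17 UMIs and its ratio of 0.907 had an interval of 0.222 to 2.78.

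In the CD8 gate of the T cell library, 1676 cells had at least 2 UMIs of Ccl5, Cxcr3, Il2rb and Nkg7, genes of memory and effector cells, and 116 had 0. Eomes measured 56.8 against 8.96 CPM (ratio 6.34, 3.33 to 13.9), and Maf 38.2 against 124. Tbx21 had 461 UMIs against 1, a ratio of 18.1 with an interval of 3.23 to 716, and with wide gates 648 against 5, a ratio of 4.86 (2.07 to 15). Gata3, at 31.1 against 60.7 CPM, was lower in the cells with these transcripts. The axillary CD8 gate repeated the order for Eomes (30.7 against 4.33 CPM, the latter from 1 UMI, ratio 7.10, 1.17 to 290.5) and Maf (33 against 82.2), with 97 and 33 cells. By surface antibodies Maf ran the other way in the same atlas, at 106 CPM in CD62L-low, CD44-high CD8 cells against 34.3 in the reverse (ratio 3.08, 1.81 to 5.22). In the CD4 gate of the T cell library, 163 cells with at least 3 UMIs of the follicular helper genes Cxcr5, Pdcd1 and Il21 held 341 CPM of Maf against 221 in 760 other cells, and 65.6 against 26.7 of Zeb2. The axillary atlas gave the same order for Zeb2 (31.9 against 14.1 CPM) and the opposite for Maf (154 against 238), with 45 and 502 cells.

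The levels also moved with Pecam1, which the main gates exclude at 2 or more UMIs. In CD8 cells of the T cell library gated without that exclusion, Maf measured 16 CPM in 1208 cells with at least 2 Pecam1 UMIs and 51.8 in 1235 cells with 0. Zeb2 measured 14.4 against 34.8 CPM, Tbx21 8.2 against 19.6 and Zbtb16 1.5 against 5.39, while Id3 was level at 18.6 and 18.7.

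The tumour conditions could be compared only in the CD4, Foxp3 and CD8 gates of the T cell library, which had 223 to 673 cells a condition. In the myeloid and stromal library the NK gate held 73 naive, 11 4T1 and 4 67NR cells and the gamma-delta gate 24, 4 and 1, under the 50 cells required. Each condition is a single pool, so the ratios have no replicate check and no test, and their 95% intervals (exact conditional binomial) cover counting error only. A gene was counted as past the fold where its log2 ratio was at least 1 in size with an interval that left out 0 and at least 50 UMIs in the higher sum. Fewer expressing cells and less RNA per cell cannot be told apart in such sums.

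In the CD4 gate 3 of 8 measured genes were past the fold in 4T1 over naive, against 1.28% of 6864 genes. Zbtb16 was at 29 CPM in the naive, 7.5 in the 4T1 and 7.49 in the 67NR pool, a log2 ratio of -1.95 (-2.64 to -1.31) for 4T1 and -1.95 (-2.65 to -1.30) for 67NR. These sums came from 11, 7 and 4 cells with 89, 26 and 25 UMIs. Id3 was at 16.9 CPM in naive, 7.21 in 4T1 (-1.23, -1.98 to -0.52) and 11.4 in 67NR (-0.57, -1.22 to 0.06). Zeb2 was at 20.5 CPM in naive, 42.1 in 4T1 (1.04, 0.60 to 1.49) and 40.5 in 67NR (0.98, 0.54 to 1.43), from 21, 38 and 36 cells. With wide gates Zeb2 and Id3 were under the fold in 4T1, at 0.44 and -0.84, and Zeb2 in 67NR was at 0.095 (-0.24 to 0.43). With cells thinned to 1000 UMIs, where fewer UMIs were left to measure with, none of the 10 was past it in any gate (Zeb2 -0.03). In 67NR over naive Zbtb16 was the 1 of 8 past the fold, against 1.9% of all genes measured, and in 4T1 over 67NR 0 of 6 were, against 0.964%. The commonest of the 10 in this gate, Rora, was lower in both tumour pools, at 794 CPM in naive, 649.7 in 4T1 and 588 in 67NR. The 11 listed innate lymphoid markers summed to 993, 501 and 600 CPM in this gate in naive, 4T1 and 67NR, with 10 or 11 detected, and the 6 regulatory T cell markers to 1878, 2430 and 2299, with Foxp3 at 0 by the gate. Their part in these ratios was not tested.

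In the Foxp3 gate 0 of 5 measured genes were past the fold in 4T1 over naive (0.746% of all genes) and 1 of 5 in 67NR over naive (1.01%). That gene was Ahr, at 35.2 CPM in naive, 49.4 in 4T1 and 74.3 in 67NR, from 50, 67 and 87 cells with a UMI. Its log2 ratio was 1.08 (0.71 to 1.46) for 67NR and 0.49 (0.09 to 0.89) for 4T1. Id2 was at 281, 405 and 374 CPM in naive, 4T1 and 67NR, and Maf at 448, 465 and 648, each with ratios under the fold. All 5 measured genes, Gata3, Rora, Maf, Id2 and Ahr, had a 67NR over naive ratio whose interval lay above 0. Of all genes, 22.2% had one that left out 0 in either direction, and the share above 0 alone was not taken. The summed level of 6 regulatory T cell markers moved less, at 7114, 7487 and 8045 CPM in naive, 4T1 and 67NR, and all 6 were detected; its part in these ratios was not tested. In 4T1 over 67NR 0 of 5 were past the fold (0.445%).

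In the CD8 gate none of the 10 genes was past the fold: 0 of 10 in 4T1 over naive (1.53% of all genes), 0 of 9 in 67NR over naive (1.55%) and 0 of 10 in 4T1 over 67NR (0.345%). Zbtb16 in 4T1 over 67NR was at 0.96 (0.31 to 1.64), from 59 UMIs in 7 cells and 31 UMIs in 8 cells. With wide gates Zbtb16 was past the fold, at 1.28 (0.68 to 1.92). The interval of the ratio still left out 0 for 5 of 10 genes in 4T1 (32.4% of all genes) and 4 of 9 in 67NR (31.8%). Eomes was at 38.6 CPM in naive, 50.9 in 4T1 (log2 ratio 0.40, 0.19 to 0.61) and 68.7 in 67NR (0.83, 0.63 to 1.03), found in 17.8%, 30.7% and 33.4% of cells. Thinned to 1000 UMIs per cell these shares were 3.33%, 4.69% and 5.65%. Tbx21 was lower in both tumour pools of the main gates, at 21.4, 13.8 and 16.5 CPM (-0.63, -0.97 to -0.29 for 4T1 and -0.38, -0.70 to -0.05 for 67NR). With wide gates the Tbx21 ratios were -0.29 (-0.57 to 0.0019) for 4T1 and -0.017 (-0.29 to 0.26) for 67NR, so both intervals held 0. Rora was at 290.2, 208 and 196 CPM, and Maf at 52.3, 33.5 and 46.3. The median UMIs per CD8 cell were 9791, 12045 and 11426 in naive, 4T1 and 67NR. The 9 NK markers summed to 130, 405 and 94.5 CPM there, with Ncr1 and Klra4 at 0 in all 3, and the 11 innate lymphoid markers to 735, 488 and 460, with 10 or 11 detected. The part of depth or of either list in these ratios was not tested.

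**Figure D4:**
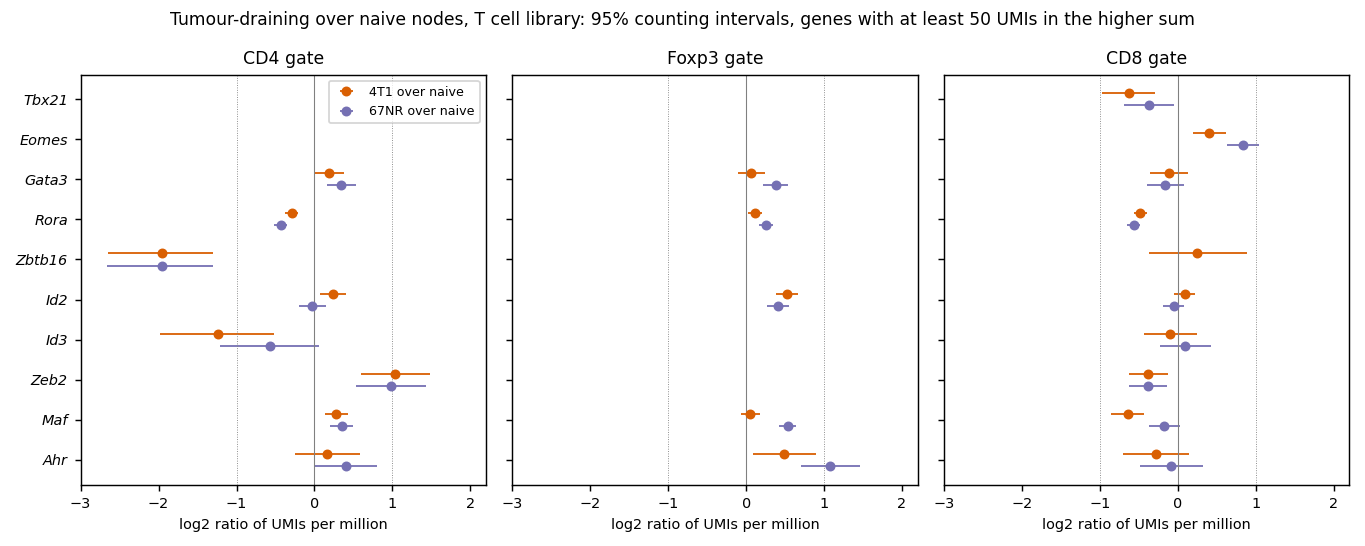
Log2 ratio of CPM in 4T1 (orange) and 67NR (purple) over naive for each measured gene, in 3 gates of the T cell library; bars are exact 95% counting intervals and dotted lines mark a log2 ratio of 1 in either direction. Zbtb16 and Id3 in the CD4 gate lie farthest below 0, Ahr in the Foxp3 gate and Zeb2 in the CD4 gate lie farthest above it, and no point in the CD8 gate lies beyond a dotted line.

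Other lineage genes, from a list of 31 transcription factors and 21 targets and products, moved beside these 10. Of the 29 factors and 19 products tested, 3 and 4 rose and 9 and 5 fell in CD8 over CD4, with median changes of -0.25 and -0.32 against 0.03 over all genes. The largest changes past the threshold there were Gzma, a granzyme of killer cells (3.80 ± 1.04, edgeR adjusted p = 0.025), and Il4, the type 2 cytokine (-3.68 ± 0.84, adjusted p = 0.0094). In Foxp3 over CD4, 6 and 5 rose and 5 and 3 fell, led by Il4 (-4.03 ± 0.92) and Hopx (2.91 ± 0.33). In gamma-delta over CD4, 2 and 2 rose and 4 and 2 fell, led by Tox2, a factor of follicular helper cells (-3.67 ± 0.71), and Gzmb (2.94 ± 0.78), and in gamma-delta over CD8 4 and 3 rose and 0 fell, led by the chemokine receptor Ccr6 (2.77 ± 0.67) and Ikzf3 (2.30 ± 0.48). In NK over CD8, 9 and 7 rose and 4 and 3 fell, led by Irf4 (-5.06 ± 0.58) and S1pr5, the receptor by which mature NK cells leave tissue (5.03 ± 1.21). In innate lymphoid over NK, 9 and 8 rose and 0 and 7 fell, led by S1pr5 (-8.77 ± 2.11) and the chemokine receptor Ccr8 (8.43 ± 1.02), whose sizes depend on near-empty sums. The factors there had 9 higher calls and 0 lower ones but a median of -0.30, against -0.06 over all genes, so calls and median differ in sign, while the products had a median of 1.25. In the other contrasts, in the order given, the medians of factors and products were -0.08 and -0.13 against -0.0027 over all genes, -0.23 and 0.72 against 0.04, 0.16 and 0.61 against -0.01, and 0.15 and 0.18 against -0.02.

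Over the 23 sums, the 2 genes whose log2 levels followed each factor most closely (Pearson r, a description over sums that share libraries and depth) were Arsb and Adamts14 for Tbx21 (0.95 and 0.95), Nkg7 and Btbd11 for Eomes (0.90 and 0.90), Pard3b and Zc3h12c for Gata3 (0.94 and 0.91), Ifrd1 and Relb for Rora (0.91 and 0.91), and Tmem176b and Tmem176a for Zbtb16 (0.94 and 0.93). For Id2 the closest was Picalm (0.93), for Zeb2 they were Prr5l and Rab27b (0.90 and 0.88), for Maf Cyfip1 and Psen2 (0.93 and 0.89) and for Ahr Kif5c and Specc1l (0.90 and 0.88). Id3 was followed by the mitochondrial genes mt-Atp6 and mt-Co3 (0.92 and 0.92).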

How the data were processed

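Libraries were made with 10x 3' v3.1 chemistry, and the authors deposited raw UMI counts per gene, hashtag or antibody and cell barcode, made, per the submitters' processing notes, by Cell Ranger 7.0 with build mm10; whether introns were counted is not given in the sources used here. Barcodes with at least 500 UMIs, 250 genes and at most 10% mitochondrial UMIs were kept. Doublets (6.98%, 17.0% and 7.55% in the T cell, myeloid and stromal, and axillary libraries, 0% in the mediastinal atlas, where the caller marked none and doublets remain) were removed, and a hashtag needed 10 counts and 3 times the next. Gate sums of at least 20 cells were fitted with edgeR 4.0.16 in R 4.3.3 (TMM, quasi-likelihood, 12 residual degrees of freedom, Benjamini-Hochberg over all genes). Tested on simulated data, this recovered 64% to 95% of genes changed by a log2 fold of 2 and 20% to 69% at 1, over the 6 contrasts. The changes were placed only in genes with many UMIs over all sums, and every pool was drawn as independent. These shares therefore do not cover low-count genes or pools that share a library. Python 3.11.15 and scanpy 1.11.5 were used for cells. Alternatives were DESeq2 1.42.0, no gene filter, no block, 1 sum per library, leaving out pools, thinning, and stricter, clustered or wide gates. Wide gates, antibody gates and the Pecam1 split were added after seeing the data. The genes and lists were chosen with earlier results of these data known. Named were all 10 genes, the 2 most alike genes of each (1 gene and 2 sub-gate splits are not reported here), and per contrast the 2 largest changes past the threshold among other lineage genes. A separate library of stromal cells was not used here. Of 8 gamma-delta markers 5 carry the listed symbol in the files.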

Additional observations from a re-analysis of the deposited data

How the results depend on the processing

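With all pools, 1134 genes in CD8 over CD4, 965 genes in Foxp3 over CD4, 644 genes in gamma-delta over CD4, 403 genes in gamma-delta over CD8, 2400 genes in NK over CD8 and 1854 genes in innate lymphoid over NK passed in edgeR. In this section the counts of members called stand without the share of all genes tested in the same setting. They describe how a setting moved the calls and are not a result about the 10 genes. With no gene filter, genes called were 1369 in gamma-delta over CD4 and 1103 in gamma-delta over CD8, members called 8 in CD8 over CD4, 7 in Foxp3 over CD4, 4 in gamma-delta over CD4, 7 in gamma-delta over CD8 and 10 in NK over CD8. Without the pool as a block (no replicate block), genes called were 420 in CD8 over CD4, 412 in Foxp3 over CD4 and 805 in gamma-delta over CD8, members called 1 in Foxp3 over CD4. With 1 sum per library, genes called were 22 in CD8 over CD4, 88 in Foxp3 over CD4, 70 in gamma-delta over CD4, 6 in gamma-delta over CD8 and 1566 in NK over CD8, members called 1 in CD8 over CD4, 0 in Foxp3 over CD4, 0 in gamma-delta over CD4 and 0 in gamma-delta over CD8. With cells thinned to 1000 UMIs, genes called were 238 in CD8 over CD4, 384 in Foxp3 over CD4, 224 in gamma-delta over CD4, 79 in gamma-delta over CD8, 920 in NK over CD8 and 717 in innate lymphoid over NK, members called 0 in gamma-delta over CD4, members past the fold 0 in 4T1 over naive and 0 in 67NR over naive. With Il2ra, Ikzf2 and Ctla4 cells left out of the CD4 gate, genes called were 682 in CD8 over CD4, 246 in gamma-delta over CD4 and 234 in gamma-delta over CD8. With wide gates and no mediastinal atlas, genes called were 3691 in CD8 over CD4, 3061 in Foxp3 over CD4, 3057 in gamma-delta over CD4, 3083 in gamma-delta over CD8, 4264 in NK over CD8 and 3012 in innate lymphoid over NK, members called 9 in CD8 over CD4, 7 in Foxp3 over CD4, 5 in gamma-delta over CD4, 6 in gamma-delta over CD8 and 10 in NK over CD8. With clusters in place of gates, genes called were 1792 in Foxp3 over CD4 and 1026 in innate lymphoid over NK, members called 1 in gamma-delta over CD8 and 3 in innate lymphoid over NK. With at most 5% mitochondrial UMIs, members called 1 in Foxp3 over CD4. With DESeq2, members called 0 in gamma-delta over CD4. With stricter gates, genes called were 1102 in gamma-delta over CD4 and 919 in gamma-delta over CD8, members called 3 in gamma-delta over CD4. With wide gates, genes called were 1060 in gamma-delta over CD4 and 695 in gamma-delta over CD8, members called 2 in gamma-delta over CD4, members past the fold 1 in 4T1 over naive and 1 in 4T1 over 67NR (Zbtb16 in each, in the CD4 and the CD8 gate). Leaving out each pool in turn gave 268 to 2818 in CD8 over CD4, 419 to 2197 in Foxp3 over CD4, 5 to 2449 in gamma-delta over CD4, 4 to 2368 in gamma-delta over CD8, 579 to 3480 in NK over CD8 and 306 to 2618 in innate lymphoid over NK genes called, and 3 to 8 in CD8 over CD4, 0 to 5 in Foxp3 over CD4, 0 to 5 in gamma-delta over CD4, 0 to 6 in gamma-delta over CD8, 3 to 10 in NK over CD8 and 3 to 7 in innate lymphoid over NK of the 10. For single genes under all alternatives, 811 gate contrasts kept direction and side of the threshold, 73 lost the call, 89 gained it and 47 turned sign; 466 condition ratios stayed within their interval, 73 moved and 1 turned sign. No gate contrast that passed with all pools turned sign under these alternatives. The values that turned were of contrasts that had not passed, and of 1 condition ratio past the fold, Zeb2 in 4T1 over naive in the CD4 gate; the cause was not tested. With cells thinned to 1000 UMIs, values were Zeb2 0.18 (CD8 over CD4), Tbx21 -0.30, Maf -0.0059 and Ahr 0.080 (gamma-delta over CD4), Ahr -0.40 (NK over CD8), Zeb2 0.33 (innate lymphoid over NK) and Zeb2 -0.034 (4T1 over naive, CD4 gate). With Il2ra, Ikzf2 and Ctla4 cells left out of the CD4 gate, values were Id3 -0.23 and Zeb2 1.81 (CD8 over CD4), Tbx21 0.30, Eomes 0.23 and Rora -0.094 (Foxp3 over CD4) and Rora -0.080 and Id3 -0.44 (gamma-delta over CD4). With clusters in place of gates, values were Rora -0.21 and Id3 0.13 (Foxp3 over CD4), Tbx21 -0.42, Rora -0.19, Id3 -0.037 and Ahr 0.048 (gamma-delta over CD4), Gata3 -0.12 (gamma-delta over CD8) and Zeb2 0.050 (innate lymphoid over NK). With no replicate block, values were Id2 -0.012 (gamma-delta over CD4), Id3 0.29 (gamma-delta over CD8) and Zeb2 0.13 (innate lymphoid over NK). With stricter gates, values were Id2 -0.043 and Id3 -0.17 (gamma-delta over CD4). With wide gates and no mediastinal atlas, values were Id3 -0.16 and Ahr 0.30 (gamma-delta over CD4) and Zeb2 0.12 (innate lymphoid over NK). With wide gates, values were Zeb2 0.19 (innate lymphoid over NK). Leaving out each pool in turn, the ranges that crossed 0 were Zeb2 -0.40 to 0.014 (CD8 over CD4), Tbx21 -0.43 to 0.065 (Foxp3 over CD4), Rora -0.57 to 0.45, Zbtb16 -0.26 to 4.17, Id2 -0.30 to 0.42, Zeb2 -0.64 to 1.82, Maf -0.70 to 0.86, Id3 -0.27 to 1.02 and Ahr -1.61 to 0.082 (gamma-delta over CD4), Id3 -0.83 to 0.27, Zeb2 -0.44 to 1.85 and Ahr -0.31 to 1.52 (gamma-delta over CD8), Zbtb16 -0.35 to 3.37 and Maf -0.41 to 1.14 (NK over CD8) and Zeb2 -0.13 to 0.13 (innate lymphoid over NK). The planned fit of conditions over 2 libraries and its alternatives (DESeq2, no gene filter, no library block, without each library) were not run, since no gate held 20 cells in every condition of both. Cell number limited NK and innate lymphoid cells outside the axillary atlas, and gamma-delta cells in the myeloid and stromal library.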
